A study of Homo sapiens with 2 samples.

Results

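This account covers 40 human imprinted genes and the open chromatin around them. The genes came from a fixed list of well-known imprinted loci, grouped into 20 clusters, and all 40 were found in the RefSeq gene table. A peak was taken when its summit lay inside the hg38 body of a listed gene or within 20 kb of it. That gave 608 of 295737 peaks in the primed library and 583 of 299657 in the hTBLC library. Touching or overlapping peaks were joined into regions, and the members made 664 of the 336224 regions of the 2 libraries. Of these 664 regions, 106 belonged to more than 1 listed gene. At the 20 kb limit, the members just inside were a shared IGF2 region at 19.4 kb, with a primed pileup of 16 and an hTBLC pileup of 13, an hTBLC-only IGF2 region at 19.5 kb with a pileup of 15, and a shared GRB10 region at 19.8 kb with 16 and 11. The nearest regions left out were shared regions at 20.9 kb from GRB10 (22 and 11) and from IGF2R (19 and 23), and an hTBLC-only region 21.1 kb from ZDBF2 (16).

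The study assayed open chromatin by ATAC-seq, in which a transposase cuts accessible DNA, in WIBR3, an established human embryonic stem cell line. One library came from cells titled primed, the conventional pluripotent state, and 1 from cells titled hTBLC, human totipotent blastomere-like cells, which are known to be made from stem cells by repressing the spliceosome. The labels give 50000 living cells collected for each, the same line and the cell type hESC for both, and no agent, dose, passage or time. With 1 library in each state no test between states was possible. Values below are summit pileups, the number of reads or fragments stacked at a summit, with exact 95% Poisson intervals, and hTBLC to primed ratios scaled by the relative depth of 1.09, with exact 95% binomial intervals. Both intervals cover counting error only, not the spread between cultures.

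The primed list held 295753 peaks with a median summit pileup of 18, and the hTBLC list 299673 peaks with a median of 17. Total read numbers were not part of the files used here, and the relative depth came from the background levels of 1.79 and 1.96. Over all 147705 shared regions with a ratio, the median log2 ratio after scaling was -0.13. That shift comes from the depth factor, since scaling by the median ratio of all shared regions gave the same values as no scaling. Changes at imprinted genes are read against that shift, and background shares past 1.5-fold carry the same scaling. Of 7 pluripotency genes checked for the cell identity, 5 had an open promoter in both libraries (61.3% of all genes). POU5F1 was open in primed alone with a pileup of 37 (5.05% of all genes), and TDGF1 was not in the start tables used here. For POU5F1, LIN28A, SALL4, KRT7 and other markers with no listed start, a region within 1 kb of either gene end counted. NANOG (35 and 21, 0.549, interval 0.303 to 0.969) and SOX2 (116 and 85, 0.670, 0.500 to 0.894) were lower in hTBLC, with primed first and the ratio last. LIN28A (47 and 91) had the higher pileup in hTBLC, with no ratio formed. DPPA4 (55 and 81) and SALL4 (125 and 118) had ratio intervals that include 1. All 4 trophectoderm, 3 endoderm, 2 mesoderm and 2 neural markers, and 3 of 4 fibroblast markers, were open in both libraries. Of them KRT7, a trophectoderm keratin, was past 1.5-fold lower (50 and 14, 0.256, 0.131 to 0.470). MESP1 (117 and 87, 0.680, 0.509 to 0.905) and COL1A1 (90 and 68, 0.691, 0.497 to 0.957) were lower but under 1.5-fold. CDX2 (26 and 34), FOXA2 (28 and 33), GATA6 (19 and 37) and PAX6 (22 and 64) had the higher pileup in hTBLC. No ratio was formed for them. At its strongest start GATA3 had an hTBLC region of 112 and no primed region. TFAP2A had a primed region of 58 and no hTBLC region at its strongest start. The other markers with a ratio had intervals that include 1. The part of cell identity in the results below was not tested. The files hold 1 value for both parental alleles, so an open region on 1 allele, on both alleles, or in some of the cells cannot be told apart. A region missing from a list is not shown to be closed. It may have been below that list's threshold, or among ranked peaks that have no line here (252 in primed, 327 in hTBLC).

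Imprinted genes are expressed from 1 parental allele. Each cluster is ruled by an imprinting control region, a stretch of CpG-rich DNA that is methylated in the egg or in the sperm and keeps that methylation through early development. The zinc finger protein ZFP57 binds the methylated copy at the letters TGCCGC and recruits TRIM28 and DNMT1, while the unmethylated copy is often open and serves as a promoter or, at H19, as a binding site of CTCF, which blocks enhancers. Human stem cells reset to a naive state are known to lose methylation at many imprints, and methylation was not measured here.

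Promoter sequences show what lies under the control windows described next. RefSeq promoters, 250 bases before to 50 bases after a start on GRCh38.p14, were present for 24 of the 40 genes. The 8 shown are starts inside or beside control regions. HYMAI, GRB10 and L3MBTL1 are 3 starts that lie under regions with the higher pileup in hTBLC. The DIRAS3 sequence lies under an hTBLC-only region with a pileup of 21 and not under the stronger shared region of that window. SNURF (25 and 28) and MEST (25 and 28) lie under shared regions, and MEG3 and NAP1L5 had no region within 1 kb of the start. Each is written 5′ to 3′ along its gene, and capitals mark TGCCGC or its reverse complement GCGGCA, where overlapping matches run together.
DIRAS3, chr1:68050578-68050877, minus strand: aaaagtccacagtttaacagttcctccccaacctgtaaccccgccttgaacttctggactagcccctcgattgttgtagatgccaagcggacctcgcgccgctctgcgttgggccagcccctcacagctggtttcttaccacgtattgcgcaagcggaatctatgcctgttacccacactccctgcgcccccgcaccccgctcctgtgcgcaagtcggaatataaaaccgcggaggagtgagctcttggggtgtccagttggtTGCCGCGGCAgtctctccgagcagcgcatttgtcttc
HYMAI, chr6:144008210-144008509, minus strand: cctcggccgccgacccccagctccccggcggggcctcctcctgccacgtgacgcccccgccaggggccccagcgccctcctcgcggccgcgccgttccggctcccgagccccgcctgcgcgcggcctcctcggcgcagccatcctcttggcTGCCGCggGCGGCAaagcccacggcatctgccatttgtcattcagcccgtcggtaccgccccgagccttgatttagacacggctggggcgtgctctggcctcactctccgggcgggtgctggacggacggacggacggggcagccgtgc
GRB10, chr7:50782847-50783146, minus strand: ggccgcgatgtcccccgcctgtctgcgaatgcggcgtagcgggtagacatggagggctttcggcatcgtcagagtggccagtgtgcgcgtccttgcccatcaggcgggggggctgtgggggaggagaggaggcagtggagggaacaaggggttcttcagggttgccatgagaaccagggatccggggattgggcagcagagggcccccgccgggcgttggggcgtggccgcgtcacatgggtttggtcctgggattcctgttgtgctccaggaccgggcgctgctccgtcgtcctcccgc
L3MBTL1, chr20:43514191-43514490, plus strand: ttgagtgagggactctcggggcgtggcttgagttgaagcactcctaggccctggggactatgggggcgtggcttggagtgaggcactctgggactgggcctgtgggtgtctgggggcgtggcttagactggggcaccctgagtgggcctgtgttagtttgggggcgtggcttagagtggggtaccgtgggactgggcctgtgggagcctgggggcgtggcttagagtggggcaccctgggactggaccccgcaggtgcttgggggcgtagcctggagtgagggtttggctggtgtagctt
SNURF, chr15:24954737-24955036, plus strand: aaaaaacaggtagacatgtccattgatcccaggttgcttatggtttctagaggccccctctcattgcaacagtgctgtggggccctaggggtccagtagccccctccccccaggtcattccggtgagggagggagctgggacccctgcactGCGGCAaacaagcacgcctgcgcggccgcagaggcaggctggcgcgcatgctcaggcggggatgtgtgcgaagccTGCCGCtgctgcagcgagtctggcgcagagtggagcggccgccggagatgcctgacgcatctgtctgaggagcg
MEST, chr7:130491808-130492107, plus strand: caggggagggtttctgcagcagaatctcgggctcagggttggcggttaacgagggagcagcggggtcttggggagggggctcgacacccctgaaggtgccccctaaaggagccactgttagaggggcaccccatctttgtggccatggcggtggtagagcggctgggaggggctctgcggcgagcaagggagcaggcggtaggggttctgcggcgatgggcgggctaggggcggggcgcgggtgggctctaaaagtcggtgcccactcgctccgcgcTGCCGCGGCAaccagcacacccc
MEG3, chr14:100825858-100826157, plus strand: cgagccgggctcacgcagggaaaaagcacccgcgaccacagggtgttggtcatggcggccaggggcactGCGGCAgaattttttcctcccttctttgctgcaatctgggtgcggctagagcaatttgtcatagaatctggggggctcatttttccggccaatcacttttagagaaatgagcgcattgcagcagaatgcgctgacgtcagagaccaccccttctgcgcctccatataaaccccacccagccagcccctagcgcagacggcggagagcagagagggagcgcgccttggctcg
NAP1L5, chr4:88697780-88698079, minus strand: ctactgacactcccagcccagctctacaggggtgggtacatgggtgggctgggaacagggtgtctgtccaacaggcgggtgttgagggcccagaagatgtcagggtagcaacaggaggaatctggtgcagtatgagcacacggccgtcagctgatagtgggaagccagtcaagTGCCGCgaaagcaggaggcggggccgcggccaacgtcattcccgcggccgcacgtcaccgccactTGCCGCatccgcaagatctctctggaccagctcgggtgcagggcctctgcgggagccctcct

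The letters TGCCGC, on either strand, were in 21 of 57 promoters of the listed genes (36.8%) and in 16.7% of all 34943 promoters of this length. Promoters of nearby starts overlap, so the same site can count more than once, as at MEG3, MEST and BLCAP. DIRAS3, HYMAI, SNURF, NAP1L5 and the MEST start shown each held 2 matches and MEG3 held 1. The GRB10 and L3MBTL1 starts shown held none in these windows. A core CTCF motif, searched on both strands, was in 0 of the 57 and in 0.0658% of all promoters. The median number of CpG dinucleotides was 18 in the listed promoters and 14 in all promoters. HYMAI, a long noncoding RNA started inside the PLAGL1 control region, had 39, and the L3MBTL1 start had 9.

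Most control windows were open in both states, as were most gene promoters, and more windows were past 1.5-fold higher in hTBLC than lower. Of 24 windows placed on known control regions, 15 were open in both libraries, 1 in primed alone, 1 in hTBLC alone and 7 in neither. Of all gene promoters, 61.3% were open in both, 5.05% in primed alone, 5.02% in hTBLC alone and 28.7% in neither. The windows differ from promoters in width, and no share over other windows of like width was computed. Among 12 windows whose strongest regions overlapped between libraries, 5 were at or over 1.5-fold higher in hTBLC and 1 was at or over 1.5-fold lower. Among all 21 shared regions that overlapped a window, 5 were higher and 2 lower by the same threshold. The shares over all shared regions were 16.9% higher and 26.6% lower. The median log2 ratio of the 12 windows was 0.12, beside -0.13 over all shared regions. The windows were compared by their strongest region, unlike that background. For the strongest promoter region of each of 21500 genes the median was 0.02, with 11% higher and 14% lower.

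DIRAS3, a RAS-like growth inhibitor expressed from the paternal allele, had the largest ratio of the windows (chr1:68049627-68051627). Its strongest region reached 26 (16.98 to 38.1) for the primed library. The hTBLC library had 95 (76.9 to 116) there, which made the ratio 3.34 (2.15 to 5.37). The hTBLC interval lay wholly above the primed interval. This region (chr1:68051429-68052014) only overlaps the upstream edge of the window, with its summit 1.1 kb upstream of the start. Nearer the start the window held a primed-only region with a pileup of 14 and an hTBLC-only region with 21.

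The PLAGL1 window at the HYMAI start (chr6:144007259-144009259) rules PLAGL1, a zinc finger growth regulator. Its strongest region had 28 reads or fragments (18.6 to 40.5) in the primed library. In hTBLC the count was 65 (50.2 to 82.8) and the ratio 2.12 (1.34 to 3.43). GRB10 encodes an adaptor that dampens insulin and growth factor signals, and its window (chr7:50780453-50784453) had 37 (26.0 to 51.0) and 71 (55.5 to 89.6), a ratio of 1.75 (1.16 to 2.69). At both windows the hTBLC interval lay above the primed interval.

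PEG13, a noncoding RNA inside TRAPPC9 whose control region governs KCNK9, had a window (chr8:140098535-140101535) whose primed pileup was 76 (59.9 to 95.1). The hTBLC pileup was 139 (117 to 164) and the ratio 1.67 (1.26 to 2.24). The window at the internal L3MBTL1 start (chr20:43513697-43515697), a gene of a chromatin-compacting protein, had 117 (96.8 to 140) and 199 (172 to 229), a ratio of 1.56 (1.23 to 1.97). Primed and hTBLC intervals stood apart at each of them.

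Of the windows with a ratio, the 1 past 1.5-fold lower in hTBLC was ZNF331 upstream (chr19:53536235-53539235), at a start of a zinc finger gene. It had 50 in primed and 34 in hTBLC, a ratio of 0.622 (0.390 to 0.981). Without scaling for depth its ratio was 0.680 (0.426 to 1.07), under 1.5-fold and with an interval that includes 1. INPP5F, a phosphoinositide phosphatase gene whose internal start is imprinted in brain, had 122 and 91 at its window (chr10:119818050-119820050), a ratio of 0.682 (0.514 to 0.902). Both were lower in hTBLC, and INPP5F stayed under 1.5-fold.

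The remaining 5 windows with a ratio had intervals that include 1. KvDMR at the KCNQ1OT1 start (chr11:2698994-2700994), which silences CDKN1C through the antisense RNA KCNQ1OT1, had 62 and 81, a ratio of 1.20 (0.848 to 1.69). The SNURF window (chr15:24953987-24956987), the Prader-Willi control region, had 34 and 37, a ratio of 0.995 (0.608 to 1.63). MEST (chr7:130490175-130494175), which encodes a hydrolase-like protein, had 43 and 39, a ratio of 0.829 (0.524 to 1.31). PEG10 (chr7:94655325-94658325), a gene derived from a retrotransposon, was the strongest window of all in both libraries, with 290 and 273, a ratio of 0.861 (0.727 to 1.02). MEG3 (chr14:100824108-100828108) had 25 and 22, a ratio of 0.805 (0.432 to 1.49), in a region near the upstream end of its window. For none of these 5 did the pileups differ beyond counting error.

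In 3 windows open in both libraries the strongest regions lay at different places, so no window ratio was formed. At GNAS-AS1 (chr20:58849902-58852902) the strongest primed region, 63, lay at the GNAS XL start. The strongest hTBLC region, 40, lay at the GNAS-AS1 start. Site by site, the GNAS XL start had 63 and 33, a ratio of 0.479 (0.304 to 0.741), lower in hTBLC. The GNAS-AS1 start had 29 and 40, a ratio of 1.26 (0.763 to 2.11). At NNAT (chr20:37520250-37522250), which encodes a membrane protein of developing brain, a primed region of 16 and an hTBLC region of 16 did not overlap. At ZDBF2 (chr2:206254663-206271663) the primed library had 6 regions, the strongest 37, and the hTBLC library had 3, the strongest 27. These windows were thus open in both, at sites that in part differed.

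Single-library windows were weak. IGF2R (chr6:160005082-160007082), whose intronic control region can start an antisense RNA, had a primed region of 8 (3.45 to 15.8) and none in hTBLC. GNAS A/B (chr20:58887748-58889748), whose methylation is lost in a form of parathyroid hormone resistance, had an hTBLC region of 17 (9.90 to 27.2) and none in primed. Neither was left when every peak had to reach a -log10 q of 5.

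No listed region reached 7 windows in either library. They were H19 ICR (chr11:1999266-2004266), IG-DMR between DLK1 and MEG3 (chr14:100808108-100813108), PEG3 (chr19:56837726-56841726), GNAS XL (chr20:58853748-58856748), NAP1L5 (chr4:88696829-88698829), RB1 (chr13:48317751-48321751) and ZNF331 downstream (chr19:53553235-53555235). The nearest regions were 10.2 kb and 10.3 kb away at H19 ICR, 2.9 kb and 2.7 kb at IG-DMR, and 165.6 kb in both libraries at PEG3. At RB1 a primed region came within 0.5 kb. At GNAS XL the nearest were 0.8 kb and 0.7 kb away. That window lies downstream of the GNAS XL start, which had a shared region of 63 and 33. Of the 4 windows methylated on the paternal allele (H19 ICR, IG-DMR, MEG3 and ZDBF2), 2 were open in both libraries and 2 in neither. Of the 20 methylated on the maternal allele, 13 were open in both, 1 in each library alone and 5 in neither.

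**Figure D1:**
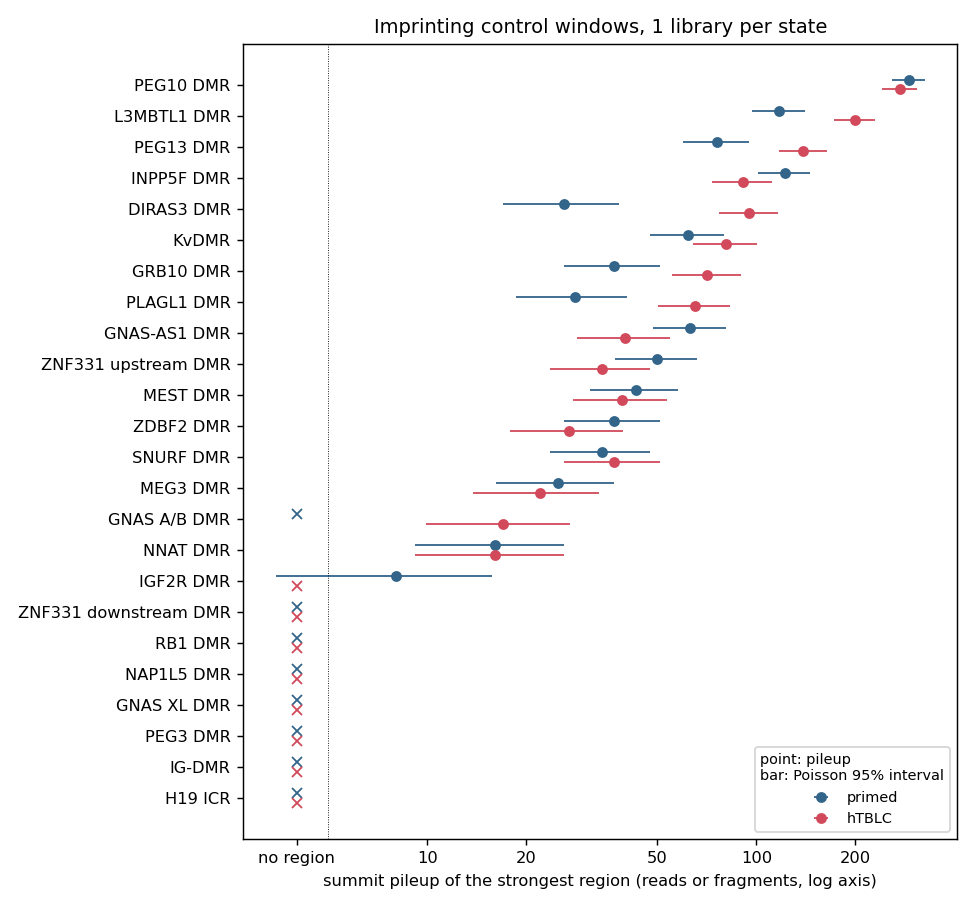
Summit pileup of the strongest region in each of the 24 control windows (log axis), primed in blue and hTBLC in red, with bars for the exact 95% Poisson interval and crosses where a library had no region. DIRAS3 goes from 26 to 95, PEG10 is highest in both at 290 and 273, and the 7 lowest rows have no region in either library.

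Most promoters of the imprinted genes were open in both libraries. A promoter counted as open when a region overlapped 1 kb either side of a RefSeq start. Of 40 genes, 30 were open in both libraries, beside 61.3% of all 38359 protein-coding and long noncoding genes and 65.5% of the 27305 with a listed start. IGF2 was open in primed alone (background 5.05%, and 4.23% of those with a listed start), RTL1 and MKRN3 in hTBLC alone (background 5.02% and 4.48%), and 7 in neither (background 28.7%). The 7 were MEG3, MEG8, H19, NAP1L5, PEG13, PEG3 and ZIM2, of which MEG3 and PEG13 had a region just beyond 1 kb, 0.3 kb past it in primed and 0.6 kb past it in hTBLC for MEG3 and within 0.1 kb of it in both for PEG13. For 29 genes a ratio could be formed at the strongest start, with a median log2 ratio of 0.20 beside 0.02 over all 21500 genes. At or over 1.5-fold, 5 were higher (background 11%) and 4 lower (background 14%).

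Higher in hTBLC were DIRAS3, HYMAI and L3MBTL1, whose starts share the regions of the control windows above, together with GRB10 and MAGEL2. GRB10 was higher at its control region start and also at its main starts, which share 1 region, with 20 and 49, a ratio of 2.24 (1.31 to 3.98). MAGEL2, a ubiquitin ligase partner in the Prader-Willi region, had 23 in primed and 50 in hTBLC, a ratio of 1.99 (1.19 to 3.41). PLAGL1 had its strongest start, upstream of the control region, at 71 and 115, a ratio of 1.48 (1.09 to 2.02). UBE3A, the ubiquitin ligase gene of Angelman syndrome, had 112 and 166, a ratio of 1.36 (1.06 to 1.74). Both stayed under 1.5-fold with intervals above 1, but without scaling for depth the PLAGL1 ratio was 1.62 (1.20 to 2.21), past 1.5-fold.

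Lower in hTBLC at the strongest start were PHLDA2, GNAS, MEST and KCNQ1. PHLDA2, which restrains placental growth, had 133 in primed and 60 in hTBLC, a ratio of 0.412 (0.299 to 0.564), in a region with its summit 1.5 kb upstream of the start. Nearer the start, an hTBLC-only region had 22 (chr11:2929436-2929831). MEST had 133 and 70 at its upstream start, outside the control window, a ratio of 0.481 (0.355 to 0.648), while its control region start had 43 and 39. GNAS, which encodes the stimulatory G protein subunit, had 63 and 33 at its XL start, a ratio of 0.479 (0.304 to 0.741). This value holds for the XL start alone. A shared region 1.8 kb past the last GNAS start used (chr20:58890255-58891766) had 28 and 37, a ratio of 1.21 (0.720 to 2.05). KCNQ1, a potassium channel gene, had 31 and 17, a ratio of 0.501 (0.260 to 0.934). Without scaling for depth the KCNQ1 ratio was 0.548 (0.285 to 1.02), with an interval that includes 1. That region also lies within 1 kb of a start or end of the TRPM5 gene. ZNF331 had 171 and 129 at its strongest start, a ratio of 0.690 (0.545 to 0.872), and did not reach 1.5-fold.

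At 3 promoters a region was listed in 1 library alone. IGF2, the fetal growth factor, had a primed region of 25 and none in hTBLC, where the nearest ended 1.0 kb beyond the promoter. Only the 5 prime end of the IGF2 body was examined, not any other IGF2 start. A shared region 12.2 kb past that end had 33 and 56, a ratio of 1.55 (0.992 to 2.46). The IGF2 body also held 3 primed-only regions and 1 hTBLC-only region. RTL1, a retrotransposon-derived gene needed in placenta, had an hTBLC region of 28, with a primed region 0.1 kb beyond the promoter. MKRN3, a zinc finger gene that restrains puberty, had an hTBLC region of 26 and no primed region within 7.9 kb of the promoter. Widened to 2.5 kb either side, IGF2 and RTL1 were no longer open in 1 library alone, and MKRN3 was the 1 gene that was.

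The other genes open in both libraries had intervals that include 1. They were TRAPPC9 (109 and 115), SNHG14 and SNRPN at a shared region (81 and 87), RB1 (72 and 99), PEG10 and SGCE at a shared region between them (72 and 72), IGF2R (67 and 84), KCNQ1OT1 (62 and 81), CDKN1C (58 and 85), ZDBF2 (46 and 59), MESTIT1 (43 and 39), BLCAP (42 and 40), GNAS-AS1 (29 and 40), KCNK9 (27 and 34), NDN (20 and 23), DLK1 (16 and 14) and INPP5F (122 and 154), with primed before hTBLC. NNAT had 16 and 16 in regions that did not overlap. SNRPN, which encodes a spliceosome protein, had a weaker internal start in SNHG14 at 16 and 52, a ratio of 2.97 (1.67 to 5.58), beside its control region start at 25 and 28.

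**Figure D2:**
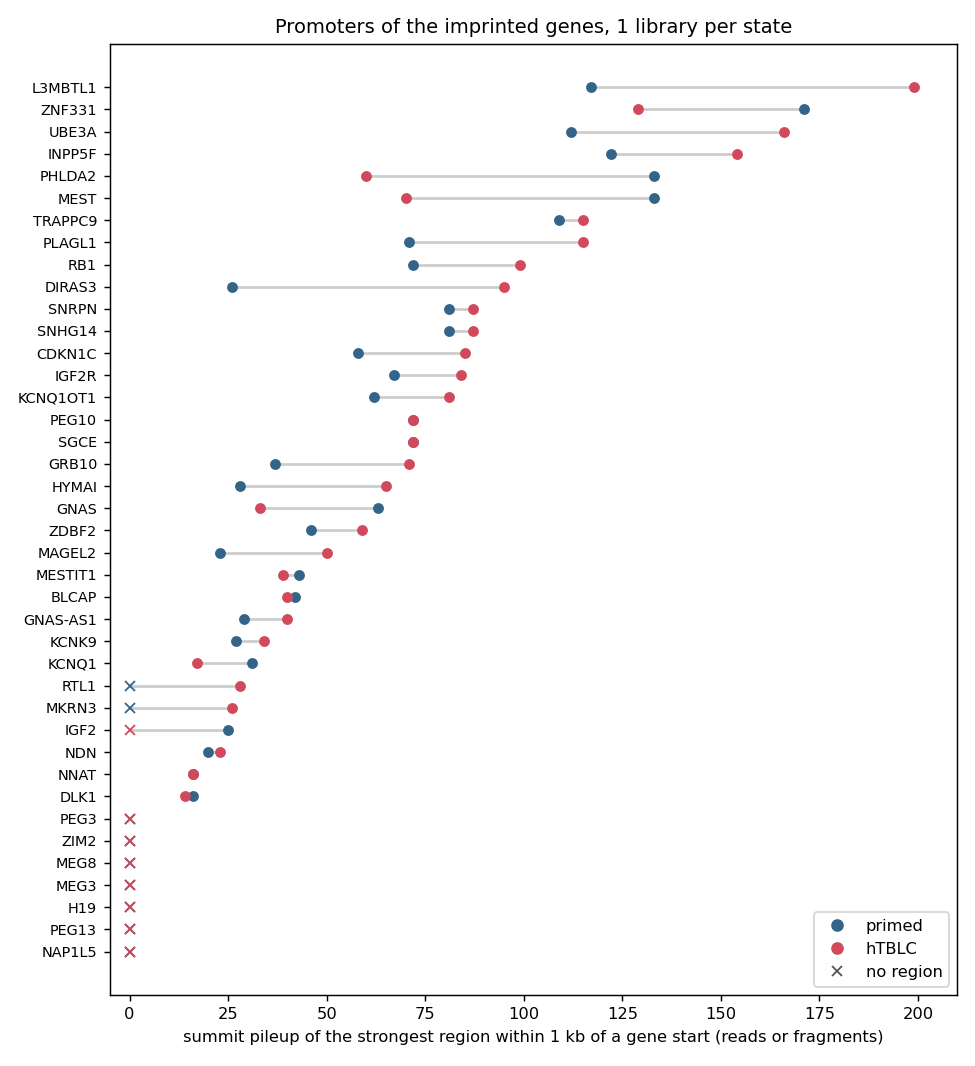
Pileup of the strongest region within 1 kb of a start for each of the 40 genes, primed in blue and hTBLC in red, joined by a line, with crosses where a library had no region. PHLDA2 and MEST lie at 133 in primed and at 60 and 70 in hTBLC, and DIRAS3 lies at 26 and 95.

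Around the genes as a whole library-only regions were of similar number in the 2 libraries. Of the 664 regions, 281 were shared (42.3%), 195 were primed-only (29.4%, background 26.8% of all regions and 28% near protein-coding genes) and 188 were hTBLC-only (28.3%, background 29.2% and 26%). Of the 383 library-only regions, 49.1% (44.0 to 54.2) were hTBLC-only, beside 52.1% over all regions and 48.2% within 20 kb of any protein-coding gene. The shared regions had a median log2 ratio of -0.04 (quartiles -0.66 and 0.45), and 58 of 281 were at or over 1.5-fold higher (20.6%, background 16.9%) and 74 lower (26.3%, background 26.6%). The counts at imprinted genes are near those backgrounds.

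By position, regions overlapping control windows numbered 36, with 21 shared, 9 primed-only and 6 hTBLC-only. Those at promoters outside the windows numbered 42, with 31 shared, 3 primed-only and 8 hTBLC-only. Gene bodies held 455, with 167 shared, 147 primed-only and 141 hTBLC-only, and flanks held 131, with 62, 36 and 33. Shared flank regions had a median log2 ratio of -0.27 and shared gene body regions 0.02. The same position classes were not counted over all regions, so these counts have no background and only describe the listed genes.

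**Figure D3:**
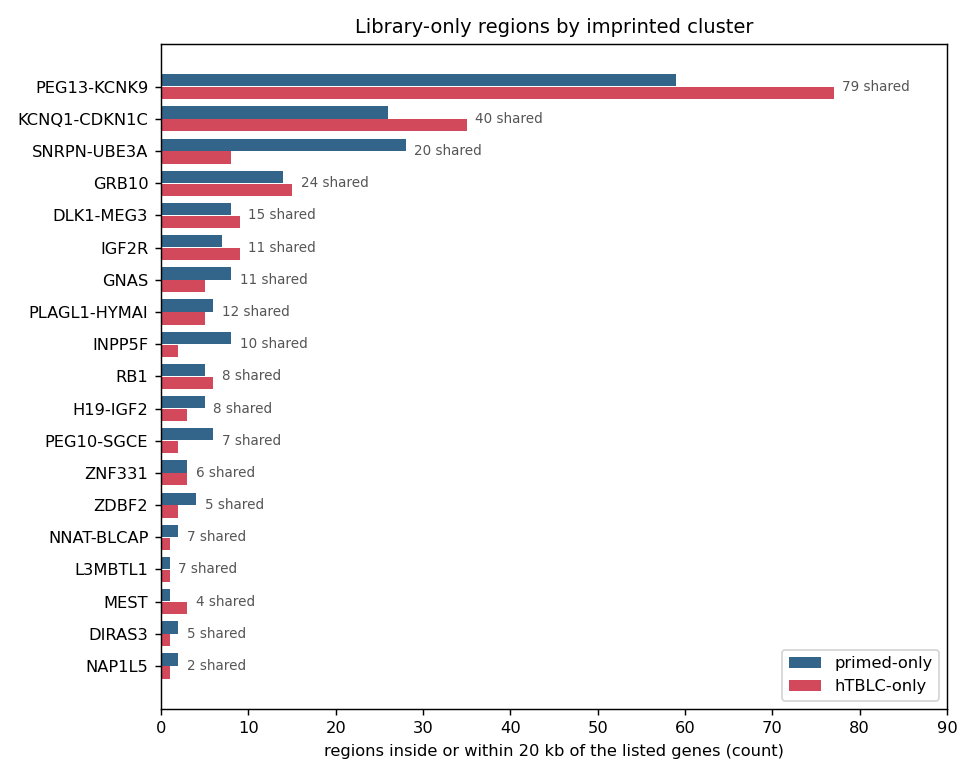
Counts of primed-only (blue) and hTBLC-only (red) regions in each cluster that has any, with the number of shared regions beside the bars. SNRPN-UBE3A has 28 primed-only and 8 hTBLC-only regions, and PEG13-KCNK9 has 59 and 77.

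The SNRPN-UBE3A cluster had the largest difference between the counts of the 2 library-only classes, with 20 shared, 28 primed-only and 8 hTBLC-only regions. SNHG14 is the long noncoding RNA that runs from the Prader-Willi control region through the small nucleolar RNA genes and across UBE3A, which it silences on the paternal allele in neurons. SNHG14 (chr15:24823608-25419462) had 26 primed-only and 3 hTBLC-only regions. On chromosome 15 as a whole, 45% of library-only regions were hTBLC-only, beside 22.2% (10.1 to 39.2) in this cluster.

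Of the 28 primed-only regions of the cluster, 23 lay past the control window. Between the SNURF window and the UBE3A promoter, from 12.6 kb to 461.9 kb past the SNURF start, 26 regions were found, 3 shared, 23 primed-only and 0 hTBLC-only. Upstream of the window within SNHG14 there were 14, with 8 shared, 3 primed-only and 3 hTBLC-only, and 2 further primed-only regions were at MAGEL2. The 23 were weak, with primed pileups of 7 to 23 and a median of 10, against a median of 12 for all such regions of the primed library. When every peak had to reach a -log10 q of 5, 7 of them were left, at 10 there were 2, and among the 50000 strongest regions of each library there were 0. The primed list goes down to a -log10 p of 2.0 and the hTBLC list to 2.83, and the hTBLC ranks end at 300000, so an hTBLC region weaker than that end is not listed. With 1 floor for both lists 22 of the 23 were left. The hTBLC-only count was 0 under all these thresholds.

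Elsewhere in the cluster, NDN, a gene that restrains cell growth, MAGEL2 and MKRN3 lie upstream of the control region. MKRN3 had 1 shared, 0 primed-only and 4 hTBLC-only regions, MAGEL2 had 3, 2 and 0, and NDN had 2, 0 and 1. UBE3A had 2 shared, 4 primed-only and 0 hTBLC-only regions, in part those of SNHG14. The strongest primed-only region of the cluster, 25, was in SNRPN (chr15:24857611-24858152), and the strongest hTBLC-only region, 26, was that of the MKRN3 promoter (chr15:23564818-23565234).

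**Figure D4:**
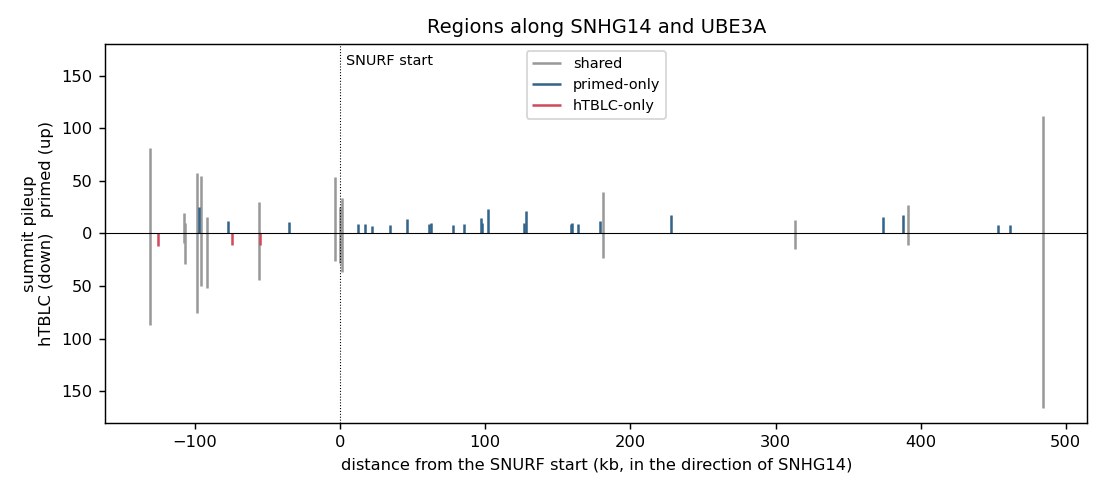
Regions along SNHG14 and UBE3A by distance from the SNURF start (kb), with primed pileup drawn up and hTBLC pileup drawn down. Past the SNURF start up to the UBE3A promoter the primed-only regions (blue) number 23, and no hTBLC-only region (red) is drawn there.

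The PEG13-KCNK9 cluster held the most regions, 215, since TRAPPC9, a trafficking gene, spans 730.9 kb (chr8:139727725-140458579). It had 79 shared, 59 primed-only and 77 hTBLC-only regions, and 56.6% (47.8 to 65.1) of its library-only regions were hTBLC-only, beside 54.5% on chromosome 8. TRAPPC9 had 51 primed-only and 67 hTBLC-only regions. Without this cluster, the hTBLC-only count at imprinted genes was 111 in place of 188 and the count at or over 1.5-fold higher was 37 in place of 58. Its strongest hTBLC-only region, 58, lay upstream of TRAPPC9 (chr8:140469497-140469794) and its strongest primed-only region, 39, in KCNK9, a potassium channel gene (chr8:139651131-139651424).

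KCNQ1-CDKN1C was next in size with 101 regions, 40 shared, 26 primed-only and 35 hTBLC-only. KCNQ1 (chr11:2445008-2849105) had 19 primed-only and 28 hTBLC-only regions, while KCNQ1OT1, inside it, had 5 and 2. CDKN1C, a cell cycle inhibitor, had 1 and 4, and PHLDA2 had 6 and 4. The strongest primed-only region, 42, lay upstream of PHLDA2 (chr11:2933462-2934043) and the strongest hTBLC-only region, 50, in KCNQ1 (chr11:2813525-2813919).

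INPP5F had 8 primed-only and 2 hTBLC-only regions, the largest difference among clusters of a single gene. Its strongest primed-only region had a pileup of 24 and its strongest hTBLC-only region 27. PEG10-SGCE had 6 and 2, of which SGCE, a sarcoglycan gene beside PEG10, held 5 and 2, with strongest pileups of 24 and 12. GNAS had 8 and 5, with strongest pileups of 26 and 21, and GNAS-AS1 alone 7 and 3. These 3 clusters had more primed-only than hTBLC-only regions.

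GRB10 had 24 shared, 14 primed-only and 15 hTBLC-only regions, and its strongest library-only pileups were 34 and 40. DLK1-MEG3 had 15, 8 and 9, with strongest pileups of 26 and 31, the latter inside MEG3, a long noncoding RNA. IGF2R, which clears IGF2, had 11, 7 and 9, with 26 and 23, and RB1, the retinoblastoma gene, had 8, 5 and 6, with 13 and 24. PLAGL1-HYMAI had 12, 6 and 5, with the strongest pair among these, 49 and 46. In these 5 clusters the counts of the 2 classes differed by at most 2.

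H19-IGF2 had 8 shared, 5 primed-only and 3 hTBLC-only regions, with H19, a growth-restraining noncoding RNA, holding 1 shared region. ZDBF2 had 5, 4 and 2, ZNF331 6, 3 and 3, DIRAS3 5, 2 and 1, NNAT-BLCAP 7, 2 and 1, NAP1L5 2, 2 and 1, L3MBTL1 7, 1 and 1, and MEST 4, 1 and 3. Among their strongest primed-only regions the highest was 40 at DIRAS3 (chr1:68057594-68057933), then 37 at ZDBF2, 25 at the IGF2 promoter, 24 at ZNF331, 17 at NNAT, 15 at NAP1L5, 9 at MEST and 7 at L3MBTL1. Among their strongest hTBLC-only regions the highest was 25 in IGF2 (chr11:2132983-2133493), then 21 at DIRAS3, 20 at MEST, 19 at NAP1L5, 16 at NNAT, 14 at L3MBTL1 and 12 at both ZDBF2 and ZNF331. PEG3-ZIM2, a cluster of zinc finger genes, had no region in either library.

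Among genes, the largest differences in library-only regions, as hTBLC-only minus primed-only, were -23 at SNHG14, 16 at TRAPPC9, 9 at KCNQ1, -6 at INPP5F, 4 at MKRN3 and -4 at each of GNAS-AS1, SNRPN and UBE3A. Behind them KCNQ1OT1 and SGCE had -3, and CDKN1C, KCNK9 and PEG13 had 3. Overlapping genes share regions in these counts.

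The 10 highest and 10 lowest ratios of shared regions came from many clusters. The largest increase was inside the SGCE body (chr7:94632279-94633036), 23.6 kb past the SGCE start, with a primed pileup of 9 (4.12 to 17.1) beside 73 (57.2 to 91.8) for hTBLC, and the ratio was 7.42 (3.70 to 16.9). TRAPPC9 held 4 of the 10 highest, among them 13 and 89, a ratio of 6.26 (3.48 to 12.2), 9 and 53, a ratio of 5.38 (2.63 to 12.4), and 23 and 101, a ratio of 4.02 (2.53 to 6.62). A region past the KCNQ1 end (chr11:2850406-2851087) had 14 and 65, a ratio of 4.25 (2.36 to 8.19). The other 5 were 1 in KCNQ1 (8 and 32), 1 upstream of KCNK9 (25 and 88), 1 in PLAGL1 (21 and 70), the DIRAS3 region already given and the fourth TRAPPC9 region (17 and 58).

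The largest decrease was 18.4 kb upstream of DLK1, a paternally expressed inhibitor of adipocyte differentiation (chr14:100708331-100709221), at the start of the noncoding gene LOC105370669. It had 109 in primed and 14 in hTBLC, a ratio of 0.117 (0.0621 to 0.206). An INPP5F region (chr10:119786148-119786750) had 86 and 14, a ratio of 0.149 (0.0781 to 0.264). A region just past the main L3MBTL1 start (chr20:43508265-43509065) had 94 and 27, a ratio of 0.263 (0.164 to 0.407), while the internal start had the higher pileup in hTBLC. The other 7 of the 10 lowest were in or near PLAGL1 (44 and 11), ZDBF2 (39 and 10), NNAT (58 and 16), GNAS (42 and 15), TRAPPC9 (62 and 23), GRB10 (32 and 13) and ZNF331 (55 and 23). All 20 regions were named among those whose pileups sum to at least 40.

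**Figure D5:**
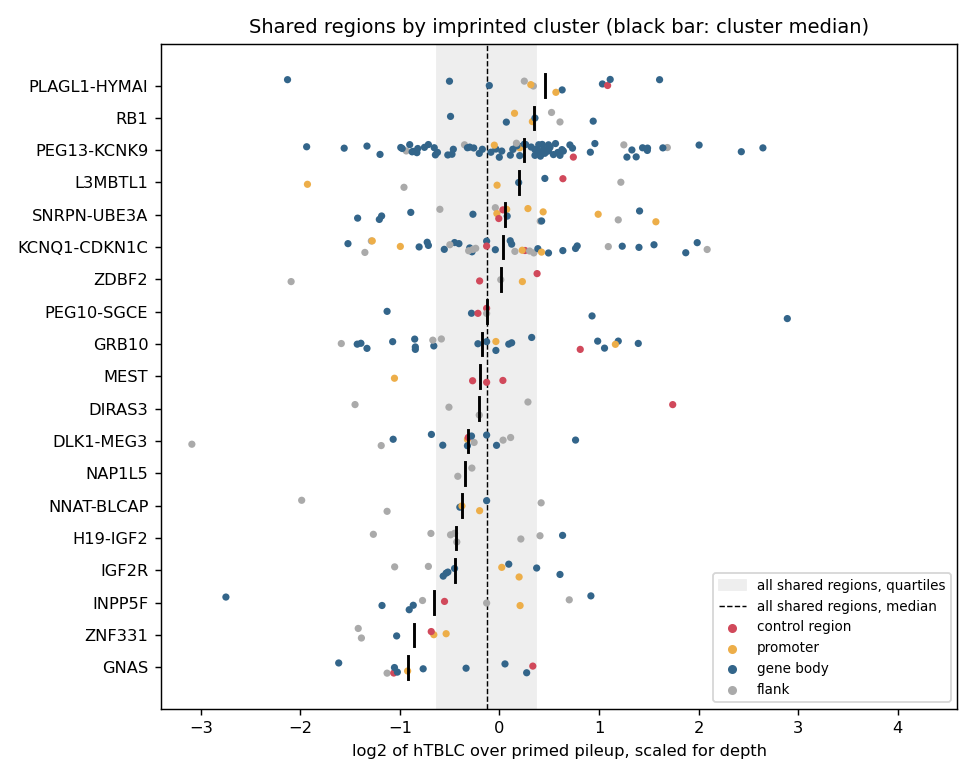
Log2 hTBLC over primed pileup of each shared region by cluster, coloured by position, with a black bar for the cluster median and grey for the quartiles of all shared regions. GNAS and ZNF331 have the lowest medians, at -0.92 and -0.86, and PLAGL1-HYMAI the highest, at 0.45.

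By cluster, the median log2 ratio of shared regions ran from -0.92 over 11 regions at GNAS and -0.86 over 6 at ZNF331 to 0.34 over 8 at RB1 and 0.45 over 12 at PLAGL1-HYMAI. Besides GNAS and ZNF331, medians below the quartile of all shared regions (-0.63) were found at INPP5F (-0.66 over 10). H19-IGF2 (-0.44) and IGF2R (-0.45) were nearer the overall median of -0.13, and SNRPN-UBE3A (0.05), KCNQ1-CDKN1C (0.03) and PEG13-KCNK9 (0.25) were above it. At the GNAS XL start (63 and 33) and the GNAS region just inside the gene (42 and 15), primed pileups were the higher.

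Genes that keep or erase imprints had open promoters at a share near that of all genes. Of 18, including DNMT1, which copies methylation, UHRF1, which guides it, ZFP57, TRIM28 and the TET enzymes, 12 were open in both libraries (background 61.3%), DPPA3 in hTBLC alone (pileup 11, background 5.02%), and 5 in neither (background 28.7%, ZFP57, DNMT3L, NLRP7, NLRP5 and PADI6). Of 11 with a ratio, UHRF1 was past 1.5-fold higher (background 11%), with 28 and 52, a ratio of 1.70 (1.05 to 2.79), and KHDC3L, an oocyte gene of imprint setting, past 1.5-fold lower (background 14%), with 21 and 9, a ratio of 0.392 (0.158 to 0.892). Their median log2 ratio was -0.08, beside 0.02 over all genes. DPPA3, known for protecting or removing methylation in early embryos, had no primed region at its promoter.

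An additional list of 26 imprinted genes outside the 40 was checked the same way. Of these 20 were open in both libraries (background 61.3%), NPAP1 (15) and PPIEL (44) in primed alone (background 5.05%) and 3 in neither (background 28.7%), and SLC22A18 was not in the start tables used here. Of 20 with a ratio, 3 were past 1.5-fold higher (background 11%) and 5 lower (background 14%). Higher with intervals above 1 were MCTS2 (9 and 36, 3.66), SLC22A2 (22 and 50, 2.08) and HM13 (47 and 100, 1.95), of which MCTS2 lies in an intron of HM13. Lower with intervals below 1 were CRYBG1 (136 and 50, 0.336), ASCL2, a placental transcription factor (37 and 15, 0.371), KLF14 (26 and 11, 0.387), DLX5 (74 and 43, 0.531) and WT1 (51 and 31, 0.556). In each pair primed stands first and the ratio last. PPIEL, HM13, ASCL2 and DLX5 had no listed start, so their regions may lie at either gene end. The median log2 ratio over 20 genes was -0.22, beside 0.20 in the 40.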

How the data were processed

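The submitters' processing notes name Bowtie2, Picard, MACS2 and hg38, with no versions, roles or settings. Peaks were deposited as 1 list per library, with a fold ratio, a -log10 p-value and a -log10 q-value at each summit, per the layout of the peak format. No pooling is stated. Ranks in the peak names run past the lines used here, with 252 primed and 327 hTBLC ranks without a line, so a region there counts as absent. The hTBLC ranks end at 300000, and whether its list was capped is not given in the sources used here. A primed-only region may thus be a weak hTBLC region past that end. From each deposited fold and -log10 p-value the summit pileup was solved as a whole count, within 0.001 of the -log10 p, for 99.999% of primed and 99.998% of hTBLC peaks, and the solver was tested on simulated data. Regions were shared when they overlapped by at least 1 bp. Ratios were divided by the relative depth of 1.09, and 1.5-fold was the threshold. Position classes go by overlap for control windows and promoters and by summit for bodies and flanks.

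The members and lists were chosen with earlier results of these data known. Genes and starts came from RefSeq on GRCh38.p14. The strands of 16 genes and the control windows rest on textbook knowledge, and the window offsets, with the GNAS XL window and a split ZNF331 window, were set on the RefSeq starts. Named with values are all windows and promoters, the strongest library-only region of each cluster, the 10 highest and 10 lowest ratios with pileups summing to at least 40, the 10 genes with the largest library-only difference (ties kept), and genes of the other lists in 1 library or past 1.5-fold. Python 3.11.15, SciPy 1.17.1, pandas 2.3.3 and matplotlib 3.10.9 were used. Alternatives changed thresholds, overlap, flank, promoter width, scaling and clusters.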

Additional observations from a re-analysis of the deposited data

How the results depend on the processing

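No paired analysis was possible because each group has 1 library, and for the same reason no replicate could be left out. Of 116 values under the alternatives, 88 stayed near the reported value and 28 moved. The median log2 ratio, near 0, ran from -0.13 to 0.09 and so changed sign. The cause was not tested beyond the alternatives' own construction, fewer peaks or genes. The clusters left out, and the counts past SNURF, were chosen after seeing the data.

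With a -log10 q of at least 5, at least 10, or the 50000 strongest regions, primed-only regions were 108, 64 and 23 in place of 195, hTBLC-only 105, 65 and 36 in place of 188, regions at or over 1.5-fold higher 31, 19 and 7 in place of 58, those lower 37, 22 and 8 in place of 74, and primed-only regions past SNURF 7, 2 and 0 in place of 23. Windows open in 1 library alone were 0, 0 and 4 in place of 2. Among the 50000 strongest, the hTBLC-only share was 61.0%, promoters open in both were 14, promoters open in hTBLC alone 5 and windows open in both 6. Promoters open in primed alone were 2 at a -log10 q of at least 10. Within 2.5 kb of starts, promoters open in primed alone were 0 and in hTBLC alone 1. Without PEG13-KCNK9, hTBLC-only regions were 111 and regions at or over 1.5-fold higher 37. Without SNRPN-UBE3A, promoters open in hTBLC alone were 1. With no depth scaling, or scaling by the median ratio of all shared regions, the median log2 ratio was 0.09, and the counts past 1.5-fold were 70 higher and 64 lower, in place of 58 and 74. Pileups of 6 and 7, the lowest in the lists, limit what could be called.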
